A study of Mus musculus with 12 samples.

Results

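The genes described here are the chemokines, the main inflammatory cytokines and the core of the NF-kB system in mouse renal cortex. They are 64 of the 46095 gene symbols in the table. Symbols made of Ccl or Cxcl and a number gave 41 of them, including 4 pseudogene symbols and 5 gene copies with a letter suffix such as Ccl21a. The other 23 were named individually: the fractalkine gene Cx3cl1, 6 interleukins, the cytokines Tnf and Csf1, the adhesion receptor gene Icam1, 4 NF-kB subunits, 3 NF-kB inhibitors, 4 receptor or adaptor genes of the tumour necrosis factor and Toll pathways, and the inflammasome genes Nlrp3 and Casp1. The rule uses symbols, not measured values.

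RNA-seq was made from 12 libraries, 4 for each of 3 groups. NC stands for the normal controls, DN for diabetic nephropathy, which is kidney damage in diabetes, and DN+NaB for diseased animals that received sodium butyrate, the salt of a short-chain fatty acid that inhibits histone deacetylases. All groups carry the strain label C57BL/6 and an age of 12 weeks. The labels do not say how diabetes was brought about, nor the dose, route or duration of butyrate, and there is no group given butyrate without diabetes. Since libraries are not linked to animals in the labels, p-values reflect only how much these 12 samples vary within groups. The tissue is labelled renal cortex, whereas the extraction text names prefrontal cortex. The 6 proximal tubule markers summed to 17999.5 to 32401.9 CPM (counts scaled to a common library size) per library and the 3 neuronal markers to at most 0.476, with Snap25 at 0 in all 12 libraries.

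Chemokines are small secreted proteins that guide leukocytes along gradients through G protein-coupled receptors. Many chemokine and cytokine genes are targets of NF-kB, a family of dimeric transcription factors held in the cytoplasm by inhibitor proteins and released when Toll-like, interleukin-1 or tumour necrosis factor receptors signal. In the kidney, tubular cells, endothelium and resident macrophages can all make chemokines, and several NF-kB inhibitors are themselves targets, which closes a feedback loop.

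Sequences before the transcription start are shown for 7 members, since NF-kB is known to bind the motif searched in them: 6 stood apart in 1 library described below, and Nfkb2 was called between DN and NC. Each is the 180 bases that end just before the start, read 5′ to 3′ on the gene's strand, from RefSeq on GRCm38.p6, a build used here for sequence only. Capitals mark matches to the kB consensus on either strand, with overlapping matches merged. The windows are chr5:90891065-90891244 (+) for Cxcl1, chr5:90903719-90903898 (+) for Cxcl2, chr1:83116586-83116765 (+) for Ccl20, chr5:30012934-30013113 (+) for Il6, chr12:55492648-55492827 (-) for Nfkbia, chr5:92348890-92349069 (-) for Cxcl10 and chr19:46304557-46304736 (+) for Nfkb2, which has 3 windows in the table, of which 1 is shown.
Cxcl1: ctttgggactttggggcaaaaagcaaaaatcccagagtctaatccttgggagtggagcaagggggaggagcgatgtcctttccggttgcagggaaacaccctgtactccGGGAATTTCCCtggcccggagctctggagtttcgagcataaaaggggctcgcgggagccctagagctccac
Cxcl2: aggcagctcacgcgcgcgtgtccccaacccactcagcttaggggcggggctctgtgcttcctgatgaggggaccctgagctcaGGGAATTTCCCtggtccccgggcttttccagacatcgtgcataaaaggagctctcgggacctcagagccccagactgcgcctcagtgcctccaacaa
Ccl20: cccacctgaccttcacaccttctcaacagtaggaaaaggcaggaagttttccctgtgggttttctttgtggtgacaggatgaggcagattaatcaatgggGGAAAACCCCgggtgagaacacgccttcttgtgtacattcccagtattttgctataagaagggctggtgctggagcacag
Il6: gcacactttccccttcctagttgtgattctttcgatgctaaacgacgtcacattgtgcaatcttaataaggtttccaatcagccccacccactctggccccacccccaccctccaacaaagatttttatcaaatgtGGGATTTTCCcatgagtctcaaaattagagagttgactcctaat
Nfkbia: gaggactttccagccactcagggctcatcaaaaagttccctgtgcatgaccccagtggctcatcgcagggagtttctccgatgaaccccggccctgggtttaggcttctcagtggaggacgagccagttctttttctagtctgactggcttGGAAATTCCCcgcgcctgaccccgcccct
Cxcl10: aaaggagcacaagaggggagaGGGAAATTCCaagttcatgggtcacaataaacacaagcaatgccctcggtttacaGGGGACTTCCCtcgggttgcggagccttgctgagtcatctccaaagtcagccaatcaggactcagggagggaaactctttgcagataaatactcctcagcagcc
Nfkb2: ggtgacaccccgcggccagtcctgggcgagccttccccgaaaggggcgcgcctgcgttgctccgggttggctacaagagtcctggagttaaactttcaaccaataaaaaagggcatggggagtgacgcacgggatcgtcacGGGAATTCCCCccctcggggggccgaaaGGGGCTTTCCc
Cxcl1 and Cxcl2, neutrophil attractants that lie near each other on chromosome 5, hold the same 11 capital letters. Over windows of 300 bases (250 before to 50 after the start), a match was present in 15 of the 43 members with a window (34.9%) and in 9.55% of 27025 genes with one. All 7 sequences shown hold a match, and for Nfkb2 the window with the most matches is the one shown. Windows without a match, such as those of Il1a and Il1b, are not shown. A match says only that these letters lie in the window.

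Of the 64 members, 40 passed the filter on low counts and were tested, and 24 did not pass. Of these 24, 15 never reached 10 counts in any library. The genes for tumour necrosis factor (Tnf), Cxcl3, Cxcl15, Ccl26, Ccl21b and Ccl16-ps were at 0 in every library. A value of 0 leaves room for up to 3 counts, at library totals of 58394975 to 70674015 (median 63588713). That bound holds only if reads of the gene could be counted, which was not tested. Of all 46095 rows, 18156 were at 0 throughout. Members that passed only because 1 group was high had to differ, so the counts below are a description. Copies such as Ccl21a, Ccl21b and Ccl21c, or Ccl27a and Ccl27b, share sequence, and their counts are uncertain.

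Compared per kilobase of exon, the members with the highest level in NC were Tnfrsf1a, the main receptor for tumour necrosis factor (33.4 CPM per kb), Cx3cl1 (26.3), the inhibitor gene Nfkbia (19.3), Cxcl12 (19.2), which encodes a chemokine made by stromal and tubular cells, and the subunit gene Rela (17.2). Most inducible members were far lower: in NC, Ccl5 stood at 2.40 CPM per kb, Cxcl9 at 0.893 and Il1b at 0.702. Cxcl16 stood at 0.119, where tested genes next to it were also low in NC, as described below. In DN the mean of Cxcl10 was 14.6 CPM per kb against 4.26 in NC, next to Cxcl12 at 14.9. The level in 1 library set much of the DN mean of many inducible members, as shown next.

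**Figure D1:**
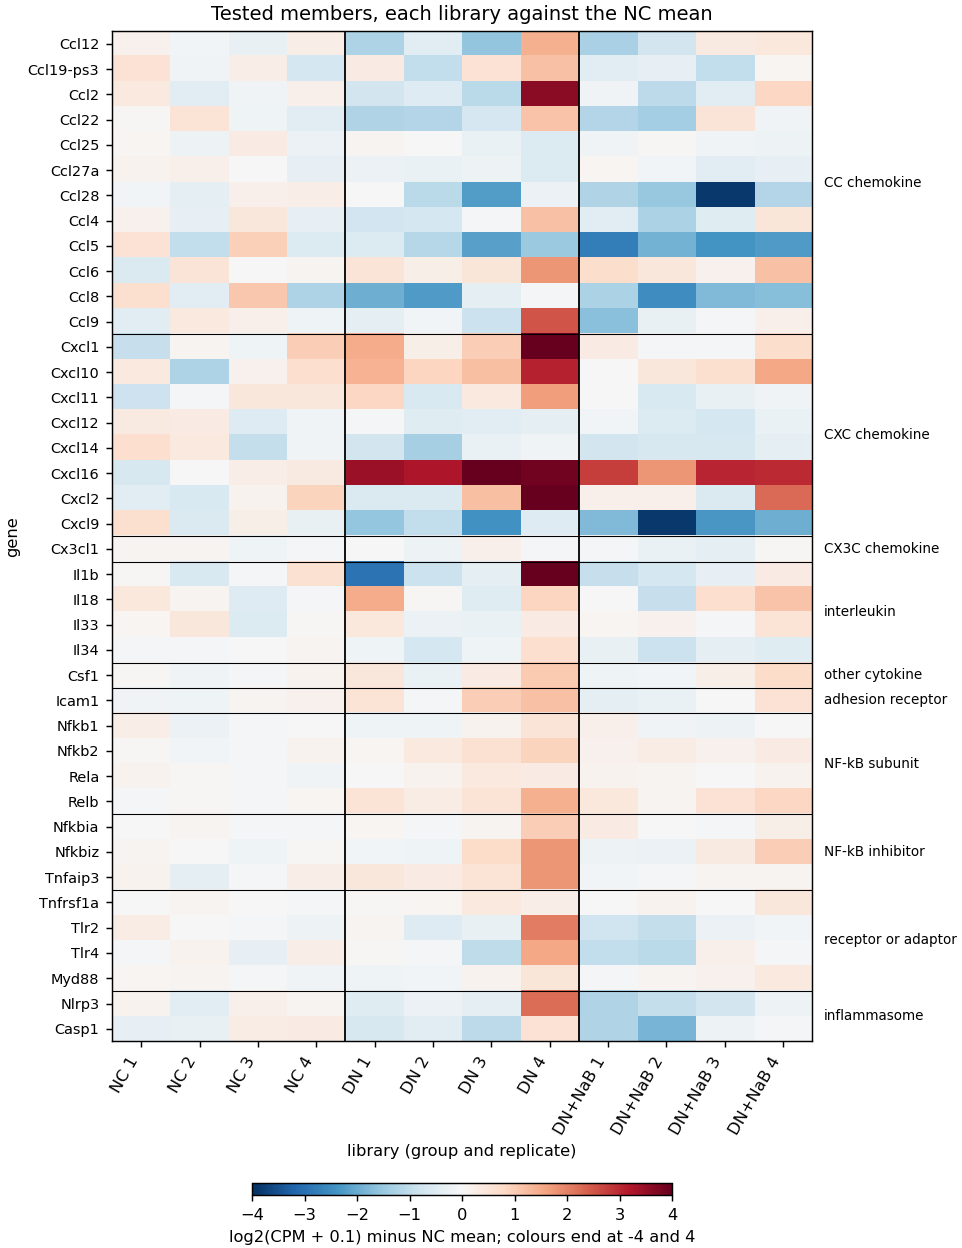
Each cell is the log2(CPM + 0.1) of a tested member in 1 library minus its mean over the 4 NC libraries, with genes in rows by role and libraries in columns by group. DN replicate 4 was the highest of 12 libraries in 26 of the 40 members, and Cxcl16 was above the NC mean in all DN and DN+NaB libraries.

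DN replicate 4 stood apart. It was the highest of the 12 libraries in 26 of 40 tested members (65.0%), against 16.7% of all tested genes, and in 34 of all 64 members. By Dixon's criterion, which divides the gap between an extreme library and the next by the group's whole range, it stood above the other DN libraries in 20 members. Groups with at least 10 counts in 1 library were examined, so members such as Cxcl5 and Il1a entered in DN only through this library. Il1b, the gene for the secreted pyrogenic cytokine interleukin-1 beta, had 1787 counts there and 5, 37 and 65 in DN replicates 1 to 3, with 52 to 144 in NC and 37 to 113 in DN+NaB. Il1a had 215 counts in DN replicate 4, 0 in the other DN libraries, and at most 7 elsewhere.

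Cxcl1 and Cxcl2, which attract neutrophils, were highest in this library. Cxcl1 had 1085 counts in DN replicate 4 and 84, 28 and 60 in the other DN libraries, against 11 to 66 in NC and 23 to 51 in DN+NaB. Cxcl2 had 600 against 1, 1 and 20 in DN, with 1 to 16 in NC and 1 to 51 in DN+NaB. Cxcl5, which was not tested, had 17 counts there and 0 in the other 11 libraries. Besides DN replicate 4, DN replicate 3 and DN+NaB replicate 4 exceeded every NC library for Cxcl2, and DN replicate 1 did for Cxcl1.

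Several CC chemokines and interleukin-6 were also highest in this library, while Ccl8 was not: it had 27 counts there, 3, 1 and 22 in the other DN libraries and 51, 20, 72 and 10 in NC. Ccl12 had 117 counts there against 14, 26 and 10 in the other DN libraries, with 34 to 57 in NC and 12 to 63 in DN+NaB, and did not meet the Dixon criterion. Ccl2, the ligand of the monocyte receptor gene Ccr2, had 177 counts in DN replicate 4 and 3, 4 and 1 in the others of DN, with 5 to 14 in NC and 1 to 23 in DN+NaB. Ccl7 had 171 there and at most 1 in the other DN libraries. Ccl20, the ligand of the receptor encoded by Ccr6, had 57 and at most 1 in each of the other 11 libraries, and Il6 had 183 there and at most 4 elsewhere. The same library was also high within DN for Ccl3 (46 counts against 1 to 8), Ccl17 (25 against 0 to 3), Ccl22 (35 against 2 to 6), Ccl6 (467 against 144 to 198) and Ccl9 (545 against 50 to 76).

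**Figure D2:**
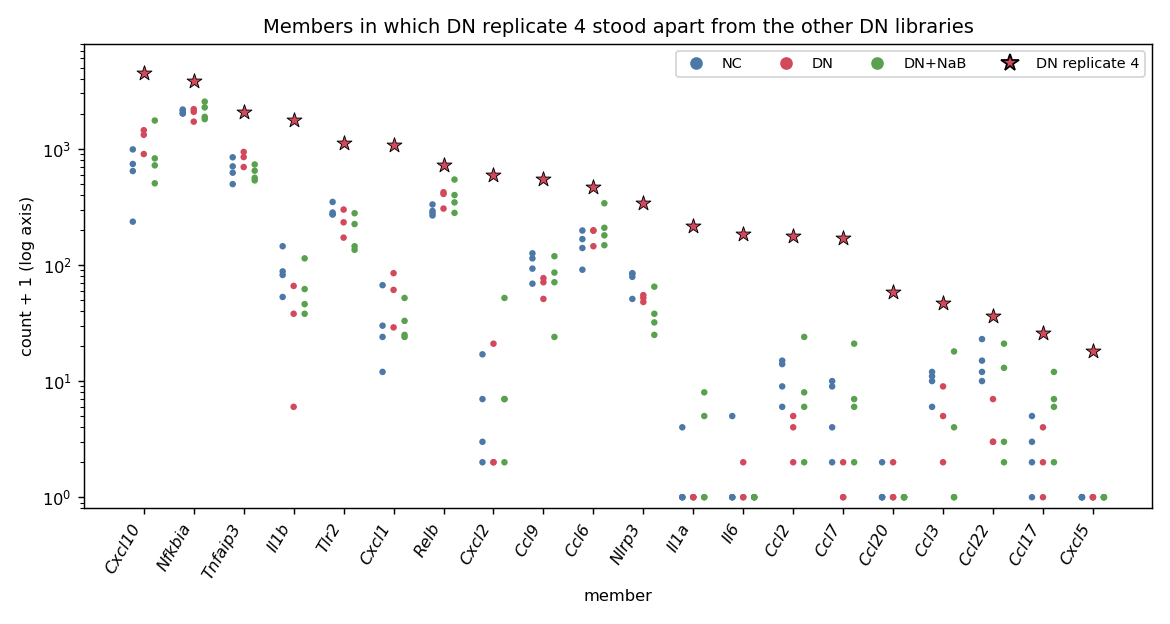
Points are counts + 1 on a log axis for the 20 members in which DN replicate 4 (star) stood above the other DN libraries by Dixon's criterion, coloured by group. In each of these members the star lies above all other libraries, from 17 counts for Cxcl5 to 4520 for Cxcl10.

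Sensors of microbial products and danger were also higher in this library than in the others of DN. Tlr2, a receptor for bacterial lipoproteins, stood at 18.1 CPM in DN replicate 4 and 4.69, 3.01 and 3.51 CPM in the others of DN. Nlrp3, the sensor of the inflammasome, stood at 5.49 CPM against 0.737, 0.897 and 0.817. Tlr4, the endotoxin receptor gene, stood at 9.81 CPM against 3.40, 3.06 and 1.56, but did not meet Dixon's criterion. The subunit gene Relb and the inhibitor genes Nfkbia and Tnfaip3 met it, as described with their groups below. By contrast Ccl27a was lowest there within DN (2.65 CPM against 3.31 to 3.42).

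Of the 16 members that stood high in this library and have a promoter window, 10 held a kB match (62.5%): Ccl20, Ccl9, Cxcl1, Cxcl10, Cxcl2, Il6, Nfkbia, Tnfaip3, Tlr2 and Nlrp3. Il1a, Il1b, Ccl3, Ccl6, Ccl17 and Ccl22 held none. Of the 27 other members with a window, 5 held a match (18.5%). Some of these others, such as Ccl1 and Cxcl3, both with a match, never reached 10 counts and could not have met Dixon's criterion. These sets were formed from measured values, so the shares are a description.

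Other measures moved with DN replicate 4. The 7 neutrophil markers summed to 17.4 CPM there, against 0.563 to 2.95 in the other DN libraries, 0.444 to 2.22 in NC and 0.0340 to 2.94 in DN+NaB; none was at 0 throughout a group, and 5 of 7 were highest in this library. The haemoglobin genes summed to 233 CPM there and to 5.77 to 9.95 in the other DN libraries, with 24.0 to 89.2 in NC and 3.68 to 128 in DN+NaB, and it had the lowest total count. The 10 macrophage and dendritic markers summed to 188 CPM, against 134 to 151 in the others of DN and 200 to 272 in NC. The part of these in the results was not tested. In bulk tissue, fewer cells of a type and less RNA per cell cannot be told apart. For many members, results for DN are therefore given with and without this library.

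The first comparison asked how these genes differed between diabetic nephropathy and normal cortex. By edgeR's quasi-likelihood test, 2 of 40 tested members were called, Cxcl16 and Nfkb2, both higher in DN, while 8.23% of all 17530 tested genes were called, 3.82% higher and 4.42% lower. The groups did not overlap for 4 members, Cxcl16, Cxcl10, Relb and Tnfaip3, all higher in DN. Over all 17530 tested genes this held for 13.3% in either direction, with 1027 higher and 1313 lower. In either direction both members' shares are below the background. For higher genes alone both are above it, on few members. The median log2 fold change of the 40 members was 0.38 (28 positive, 12 negative), against 0.01 over all genes tested. Without DN replicate 4 the median was -0.07 over 41 members tested (17 positive, 24 negative), and only Cxcl16 was called.

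**Figure D3:**
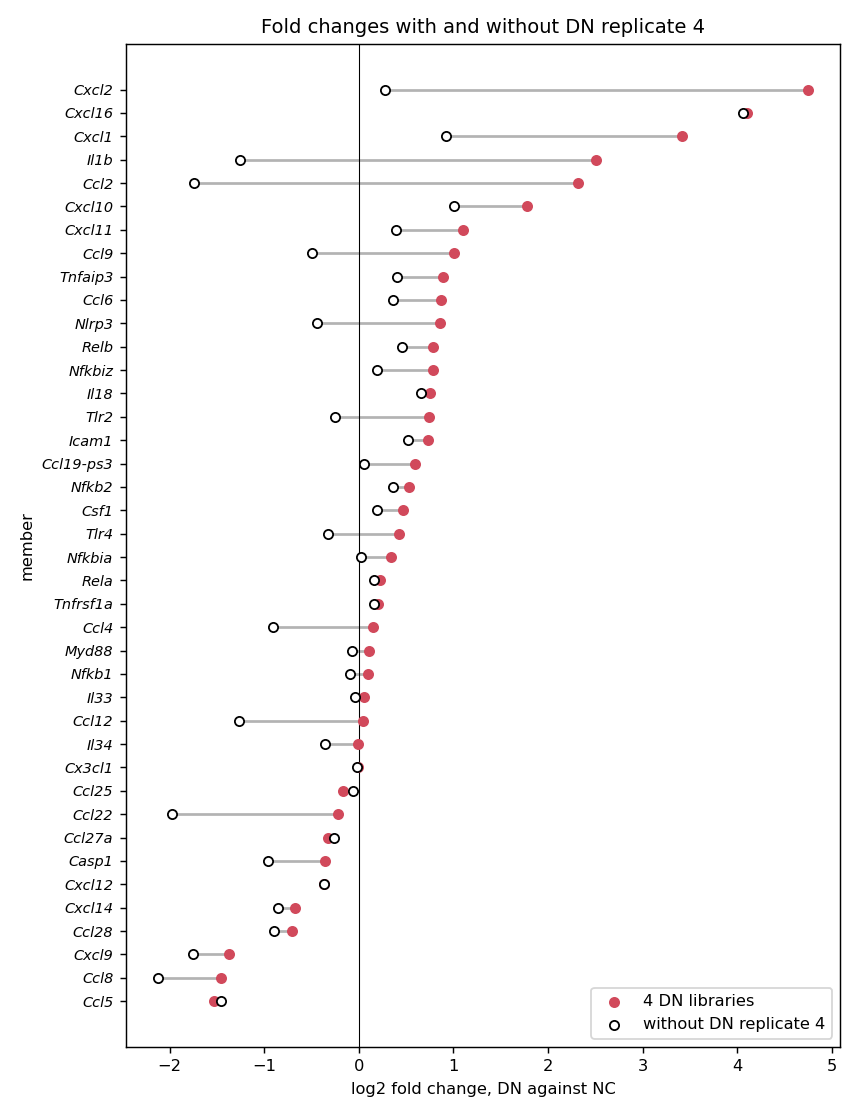
Filled points are log2 fold changes of DN against NC for each tested member with all 4 DN libraries, and open points the same without DN replicate 4. Il1b moved from 2.51 to -1.26 and Cxcl2 from 4.75 to 0.28, while Cxcl16 stayed near 4.1 (4.10 and 4.07).

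Cxcl16 encodes a chemokine that exists as a membrane-bound scavenger receptor and as a shed ligand of the receptor encoded by Cxcr6. It stood at 0.184, 0.340, 0.437 and 0.472 CPM in NC replicates 1 to 4, at 4.70, 4.08, 9.73 and 6.28 in DN, and at 2.91, 1.41, 3.52 and 3.37 in DN+NaB. The 3 groups did not overlap: NC was lowest, DN+NaB between, DN highest. In counts these are 12 to 34 for NC, 232 to 643 for DN and 85 to 235 for DN+NaB. DN exceeded NC by 4.10 ± 0.40 on the log2 scale (SE, n = 4 per group, adjusted p = 1.96e-05), and by 4.07 ± 0.42 without DN replicate 4 (adjusted p = 5.89e-05).

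Genes beside Cxcl16 were examined after its values had been seen, since tested genes next to it were also low in NC. Its 10 nearest tested genes on each side, in the RefSeq order of GRCm38.p6, had a median of 0.552 CPM for NC, 1.22 for DN and 2.21 for DN+NaB, against 10.3, 10.2 and 9.99 over all tested genes. Of these 20 neighbours, 6 were called higher in DN and none lower (30%): Tm4sf5, Psmb6, Pld2, Mink1, Camta2 and Alox15. Over all tested genes 3.82% were called higher. Tm4sf5, the next gene, had 0 to 0.0310 CPM per NC library and 0.775 to 1.70 in DN (adjusted p = 0.00209), too low in NC for a reliable fold, and Psmb6, a proteasome subunit gene, differed by 2.11 ± 0.39 (0.00377). Alox15 had no counts in NC and 0.0303 to 0.893 CPM in DN. Pfn1, which encodes the actin-binding protein profilin, stood at only 1.22 to 2.42 CPM among NC libraries and 1.20 to 1.79 among DN. Of the neighbours of Nfkb2, 2 of 20 were called in DN against NC (10.0%, against 8.23% of all tested genes). Cxcl16 also shares 552 exon bases (18.3% of its exons) with Zmynd15 on the other strand, which had 0 to 12 counts. The part of the locus or of the counting in the Cxcl16 values was not tested.

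**Figure D4:**
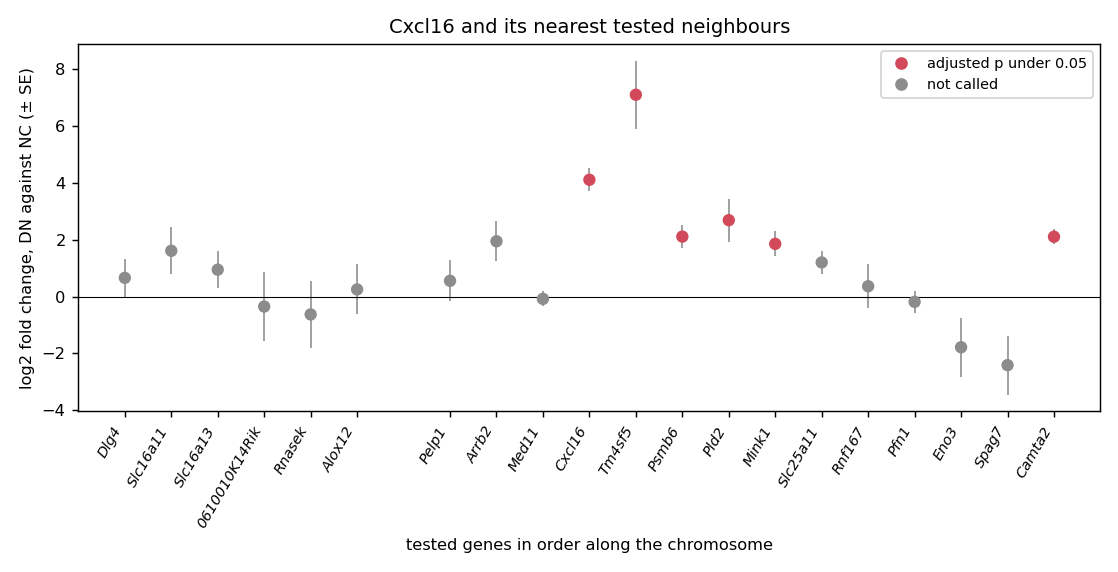
Points are log2 fold changes (DN against NC, ± SE, n = 4 per group) of Cxcl16 and its tested neighbours in chromosome order, with called genes in red; Alox15 is left out because it had no counts in NC. Of the neighbours, Tm4sf5, Psmb6, Pld2, Mink1 and Camta2 are shown as called higher, and the fitted value of Tm4sf5 rests on an NC level near 0.

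Of the other CXC chemokines edgeR called none between DN and NC, while DESeq2 called Cxcl10 and Cxcl9 (adjusted p = 0.0248 and 0.0475), both interferon-induced ligands of the receptor encoded by Cxcr3. Cxcl10, the best expressed of these, stood at 11.3, 3.64, 9.68 and 13.7 CPM in NC, 22.7, 15.9, 19.98 and 73.0 in DN, and 8.58, 11.9, 13.6 and 25.2 in DN+NaB. Every DN library was above every NC library, and DN+NaB overlapped both. The difference between DN and NC was 1.78 ± 0.56 (adjusted p = 0.0791), and 1.0 ± 0.43 without DN replicate 4 (0.171), so edgeR did not call it. Cxcl9, another ligand of that receptor, had a lower mean in DN (1.04 ± 0.579 CPM, SD) than in NC (2.69 ± 1.04), with overlapping groups. The Cxcl9 difference was -1.37 ± 0.52 (adjusted p = 0.133), and -1.75 ± 0.56 without DN replicate 4 (0.0648). Cxcl11, the last of these ligands, had at most 34 counts.

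Interferon response genes spread widely within DN. Of the 10 genes on an interferon gamma list, 9 were tested and edgeR called none between DN and NC. Of the 9, 5 had an unadjusted p under 0.05, against 3837 of all 17530 tested. The median of the 9 log2 fold changes was 1.73, and 1.13 without DN replicate 4. DESeq2 called 2 of the 10 genes on this list, against 11.0% of genes. Their summed level was 1791, 363, 1598 and 2553 CPM in DN replicates 1 to 4 and 309 to 664 CPM in NC. Gbp2, an interferon-induced GTPase gene, had 1324 to 42729 counts in DN and 2392 to 5521 in NC. Ifng, which encodes interferon gamma itself, had 0 to 15 counts in any library.

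Neither edgeR nor DESeq2 called Cxcl12, Cx3cl1 or Cxcl14, which are among the most abundant chemokines here, between DN and NC. Cxcl12 stood at 195, 190.2, 105 and 137 CPM in NC, 146, 109, 114 and 118 in DN, and 140, 105, 93.3 and 127 in DN+NaB, with overlapping groups (DN minus NC -0.37 ± 0.19, adjusted p = 0.282). Cx3cl1, a membrane-anchored chemokine of epithelium and endothelium, averaged 103 ± 9.36 CPM for NC, 103 ± 12.6 for DN and 91.8 ± 12.0 for DN+NaB (SD, n = 4). Its DN minus NC difference was -0.01 ± 0.12 (adjusted p = 0.974), and its sign changed when single libraries were left out. Cxcl14, an epithelial chemokine, averaged 13.4 ± 5.91 CPM for NC, 8.41 ± 2.83 for DN and 8.16 ± 1.04 for DN+NaB.

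Among CC chemokines edgeR called none of 12 tested in DN against NC, where it called 8.23% of all genes. An unadjusted p was under 0.05 for 2 of them, against 3837 of all 17530 tested genes. DESeq2 called 1, Ccl5 (adjusted p = 0.0129), against 11.0% of genes. Ccl5, the lymphocyte product RANTES, had 198, 62, 259 and 95 counts in NC and 84, 48, 24 and 40 in DN. Only DN replicate 1 reached into the NC range, and the difference was -1.54 ± 0.47 (adjusted p = 0.0607). Median log2 fold change over the 12 was -0.06 with all libraries and -0.90 without DN replicate 4.

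For the secreted interleukins and growth factors no call was made. Without DN replicate 4 the Il1b difference turned from 2.51 ± 1.32 to -1.26 ± 0.61 (adjusted p = 0.309 and 0.211). Il18 had 17 to 38 counts per NC library, 17 to 84 per DN library and 10 to 70 per DN+NaB library. Il33, a nuclear alarmin gene, stood at 4.46 to 9.04 CPM among NC libraries and 5.53 to 8.92 among DN. Csf1, the growth factor for macrophages, stood at 22.3, 19.7, 21.1 and 23.6 CPM in NC and 29.7, 18.04, 27.4 and 44.6 in DN. In DN+NaB it stood at 19.2, 20.02, 25.7 and 36.1. The DN minus NC difference was 0.47 ± 0.24 (adjusted p = 0.294), and 0.19 ± 0.22 without DN replicate 4 (0.641). Csf1r, its receptor gene and a macrophage marker, was lower in DN: 7162 to 7830 counts in NC and 3020 to 4549 in DN, without overlap (-0.91 ± 0.12, adjusted p = 2.66e-04).

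Icam1, the adhesion receptor for leukocyte integrins, stood at 37.4, 37.1, 44.9 and 47.1 CPM in NC, 60.5, 39.4, 82.4 and 93.9 in DN and 31.8, 34.4, 41.5 and 62.5 in DN+NaB. DN replicate 2 lay within the NC range and the other DN libraries above it. The difference was 0.73 ± 0.26 (adjusted p = 0.107), and 0.52 ± 0.26 without DN replicate 4 (0.231). Without DN replicate 2 it was called (0.92, adjusted p = 0.0233).

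Among NF-kB subunits, Nfkb2, which encodes the p100 precursor of the non-canonical pathway, was higher in DN. It stood at 25.8, 23.0, 23.5 and 27.0 CPM in NC, 26.3, 32.7, 37.9 and 46.4 in DN, and 28.0, 30.7, 27.7 and 31.0 in DN+NaB. DN replicate 1 lay within the NC range. The difference was 0.53 ± 0.15 (adjusted p = 0.0406), and the call was lost when any 1 library other than DN replicate 1 was left out (for DN replicate 4: 0.36 ± 0.12, 0.0781). Its partner Relb stood at 4.07, 4.50, 4.202 and 4.59 CPM in NC, 6.39, 5.37, 6.39 and 11.8 in DN and 5.87, 4.64, 6.57 and 7.80 in DN+NaB. All DN and all DN+NaB libraries were above all NC libraries, with a DN minus NC difference of 0.79 ± 0.24 (adjusted p = 0.0551). Without DN replicate 4 the Relb difference was 0.46 ± 0.18 (adjusted p = 0.125).

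The canonical subunits were not called. Rela, the main activating subunit, averaged 52.8 ± 4.13 CPM for NC, 61.7 ± 7.54 for DN and 56.6 ± 1.97 for DN+NaB (0.22 ± 0.10, adjusted p = 0.228 for DN against NC). Nfkb1, which encodes the p50 precursor, stood at 36.0 to 50.7 CPM among NC libraries and 37.8 to 61.2 among DN (0.10 ± 0.16, adjusted p = 0.781). Both had overlapping groups. Nfkb2 shares 299 exon bases with Psd (94 to 207 counts) and 531 with AC114539.1 (counts not analysed here), both on the other strand, so its level is uncertain.

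Of the genes grouped here as inhibitors, Nfkbia and Tnfaip3 are NF-kB targets whose products limit the signal. Tnfaip3, which encodes the ubiquitin-editing protein A20, stood at 10.8, 7.68, 9.37 and 11.72 CPM in NC, 13.3, 12.2, 14.2 and 33.7 in DN and 9.09, 9.31, 10.6 and 10.5 in DN+NaB. Every DN library was above every NC and every DN+NaB library. Its DN minus NC difference was 0.89 ± 0.28 (adjusted p = 0.0669), and 0.40 ± 0.15 without DN replicate 4 (0.111). Nfkbia, which encodes the inhibitor that retains Rela in the cytoplasm, stood at 61.7 CPM in DN replicate 4 and 30.2 to 33.2 in the other DN libraries, with 29.5 to 33.7 in NC (0.34 ± 0.19, adjusted p = 0.334; 0.02 ± 0.11 without that library). Nfkbiz, an inducible nuclear regulator, stood at 8.18 to 9.98 CPM among NC libraries and 8.22 to 31.5 among DN.

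Receptors and adaptors were not called. Tnfrsf1a spanned 83.1 to 92.4 CPM among NC libraries, 88.8 to 114 among DN and 86.5 to 118 among DN+NaB (0.20 ± 0.12 for DN against NC, adjusted p = 0.363). Myd88, the adaptor of Toll-like and interleukin-1 receptors, stood at 21.0 to 24.8 CPM among NC libraries and 20.5 to 32.7 among DN. It shares exon bases with Acaa1a on the other strand, an abundant gene with 3282 to 6584 counts, so its level is uncertain. The inflammasome protease gene Casp1 had 22 to 42 counts per NC library, 11 to 44 per DN library and 3 to 29 per DN+NaB library. Tlr2 and Nlrp3 differed by 0.74 ± 0.49 and 0.86 ± 0.58 with all libraries, and by -0.25 ± 0.25 and -0.44 ± 0.32 without DN replicate 4.

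By DESeq2, 8 members were called in DN against NC, against 11.0% of the 19697 genes it gave an adjusted p: Cxcl16, Nfkb2, Cxcl10, Relb, Tnfaip3 and Icam1 higher, Ccl5 and Cxcl9 lower. It gave 39 members an adjusted p, so their share is above that background, unlike the edgeR share in either direction. It gave none to Ccl2, Ccl9, Cxcl1, Cxcl2, Il1b and Nlrp3, in each of which DN replicate 4 was the highest library. DESeq2 was not run without that library.

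The second comparison asked how butyrate-treated diseased mice differed from untreated ones. It shares the DN libraries with the first, so each DN value enters both, and the values are set side by side without being combined. No member was called by edgeR, as against 0.0228% of all tested genes. An unadjusted p was under 0.05 for 9 of 40, against 1726 of 17530 genes. Of these 9, only Ccl5 (0.0251), Cxcl16 (0.0098) and Tnfaip3 (0.0168) kept such a p in the edgeR fit without DN replicate 4. By DESeq2 1 was called, Cxcl16 (adjusted p = 0.0437), against 1.52% of genes. The groups did not overlap for 2 members, Cxcl16 and Tnfaip3, both lower in DN+NaB. That share is near the background of 4.56% of all tested genes in either direction. It is above that of lower genes alone (427 of 17530), on few members. The median log2 fold change was -0.51 (4 positive, 36 negative), and -0.08 without DN replicate 4 (18 positive, 23 negative), against -0.02 over all genes.

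Cxcl16 was at 2.80 ± 0.966 CPM in DN+NaB and 6.20 ± 2.53 in DN (SD, n = 4), a difference of -1.14 ± 0.34 (adjusted p = 0.27), and -1.12 ± 0.37 without DN replicate 4. Tnfaip3 averaged 9.89 ± 0.809 CPM in DN+NaB and 9.89 ± 1.77 in NC. Its difference from DN was -0.89 ± 0.28 (adjusted p = 0.29), and -0.42 ± 0.15 without DN replicate 4. For Icam1 the difference was -0.70 ± 0.26 (adjusted p = 0.404), and for Cxcl1 it was -3.29 ± 1.06 (0.331), which became -0.81 ± 0.51 without that library.

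The third comparison set butyrate-treated diseased cortex against normal cortex. DN replicate 4 is not among the libraries compared, and enters through the filter, the scaling and the shared estimate of spread. Here 4 members were called by edgeR: Cxcl16 higher, and Ccl5, Cxcl9 and Ccl8 lower. This is 4 of 40 against 15.6% of all tested genes, 6.62% higher and 8.94% lower, and without DN replicate 4 there were 5, with Il34 added (adjusted p = 0.0341). The members' share is below that background. The groups did not overlap for 8 members, against 27.9% of tested genes: Cxcl16, Nfkb2 and Relb were higher in every DN+NaB library, and Ccl5, Cxcl9, Ccl8, Ccl28 and Il34 lower; this share too is below the background. The median log2 fold change was -0.15 (16 positive, 24 negative), against -0.01 over all genes.

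**Figure D5:**
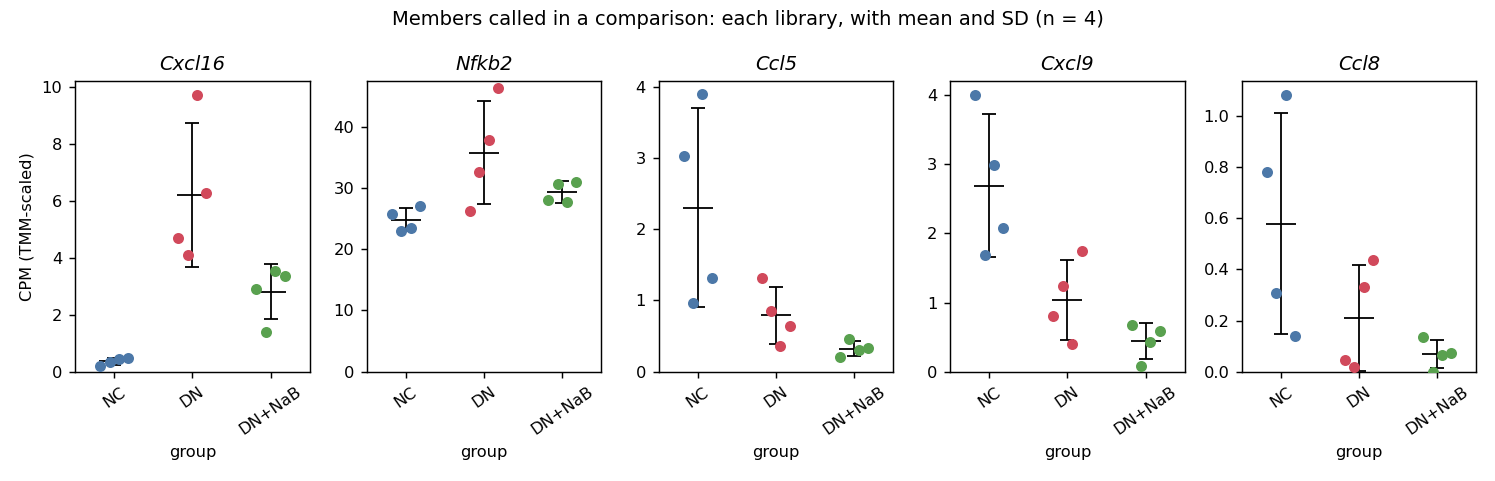
Points are TMM-scaled CPM of each library for the 5 members called in a comparison, with bars for mean and SD (n = 4 per group). Cxcl16 shows 3 groups that do not overlap, and Ccl5 and Cxcl9 show DN+NaB libraries below all NC libraries.

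Ccl5 had 12, 28, 18 and 23 counts in DN+NaB against 62 to 259 in NC, 0.324 ± 0.107 and 2.30 ± 1.40 CPM. The difference was -2.82 ± 0.50 (adjusted p = 0.00185). Cxcl9 had 40, 5, 26 and 41 counts against 262, 109, 199 and 150 in NC, with 51, 70, 26 and 108 in DN (DN+NaB minus NC -2.59 ± 0.55, adjusted p = 0.00602). Ccl8, a chemokine of resident macrophages, had 8, 0, 4 and 5 counts against 51, 20, 72 and 10 (-3.04 ± 0.98, adjusted p = 0.0471), and lost its call when NC replicate 1, 2 or 3 or any 1 DN+NaB library was left out (adjusted p up to 0.125). In DN these 3 genes lay between NC and DN+NaB in mean, at 0.793, 1.04 and 0.208 CPM.

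Cxcl16 exceeded NC by 2.96 ± 0.38 (adjusted p = 1.85e-04) in DN+NaB, with 4 of its 20 neighbours called, all higher (20%). For Ccl5 0 of 20 neighbours were called, for Cxcl9 1, and for Ccl8 5. Over all tested genes 15.6% were called in either direction, 6.62% of them all being higher. Ccl28, a mucosal chemokine, had 61, 49, 5 and 75 counts in DN+NaB, 163, 65, 30 and 132 in DN and 153, 126, 195 and 218 in NC (DN+NaB minus NC -1.76 ± 0.60, adjusted p = 0.0646). Il34, which encodes a second ligand of the Csf1r product made by tubular cells, stood at 8.17, 7.96, 8.66 and 9.25 CPM in NC, 7.46, 5.21, 7.52 and 13.6 in DN and 6.86, 4.65, 6.42 and 6.00 in DN+NaB (-0.51 ± 0.24, adjusted p = 0.169).

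Lymphocyte and macrophage markers, like Ccl5, Cxcl9 and Ccl8, were lower in DN+NaB than in NC. The 10 T and NK cell markers had summed levels of 16.4 to 29.1 CPM among NC libraries, 5.84 to 20.3 among DN and 2.30 to 3.65 among DN+NaB, and all 8 tested were called lower in DN+NaB than NC. Of all tested genes, 8.94% were called lower in that comparison. Trac was at 0 in all 12 libraries. The 5 B and plasma cell markers had sums of 6.32 to 22.6 CPM among NC libraries, 0.722 to 1.92 among DN and 0.497 to 1.14 among DN+NaB. Of these, 2 were tested, and these 2 were called lower in DN+NaB than NC. The 10 macrophage and dendritic markers had sums of 200 to 272 CPM among NC libraries, 134 to 188 among DN and 122 to 151 among DN+NaB, with all 10 called lower in DN+NaB than NC. Their part in the chemokine results was not tested.

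Receptors of these ligands were looked at from a list of 22 chemokine receptor genes, of which 13 were tested. In DN against NC 1 was called higher and 1 lower, against 3.82% and 4.42% of all tested genes. In DN+NaB against DN 1 was called lower, against 0.0228% of all tested genes in either direction. In DN+NaB against NC 6 were called lower, against 8.94% of all tested genes. Cxcr3, which binds the products of Cxcl9 and Cxcl10 on T cells, had 109 to 177 counts per NC library, 52 to 88 per DN library and 10 to 14 per DN+NaB library, 3 ranges that did not overlap. It was called in each comparison: -0.99 ± 0.28 for DN against NC (adjusted p = 0.0403, and 0.0612 without DN replicate 4), -2.31 ± 0.31 for DN+NaB against DN (0.0299) and -3.30 ± 0.31 for DN+NaB against NC (1.3e-05). Cxcr6, the receptor gene for the Cxcl16 ligand, had 39 to 88 counts in NC, 28, 47, 1 and 1 in DN and 1 to 13 in DN+NaB (DN+NaB minus NC -3.48 ± 1.03, adjusted p = 0.0349). Those called lower in DN+NaB than NC also included the genes of the monocyte receptor Ccr2 (-1.91 ± 0.53), of Ccr7 (-2.27 ± 0.70) on dendritic cells and of Xcr1 (-3.15 ± 0.60) on cross-presenting dendritic cells. Ccr1 was called higher in DN than NC (2.57 ± 0.69, adjusted p = 0.0353), with 278 counts in DN replicate 4 and 31 to 82 in the other DN libraries, and was not called without it (1.47, 0.0995).

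Of 12 cytokine receptors and decoys, all tested, 1 was called higher and 1 lower in DN than NC, against 3.82% and 4.42% of all tested genes. Il18bp, which encodes the secreted trap of interleukin-18, was higher (3.63 ± 0.91, adjusted p = 0.0369) but ranged from 519 to 12468 counts among DN libraries, with 476 to 608 in NC, and was not called without DN replicate 4 (3.44, 0.062). Csf1r, described with its ligand and also on the macrophage list, was lower. Between DN+NaB and NC, Csf1r (-0.89 ± 0.12) and Il18rap (-3.19 ± 0.70), an accessory chain of the interleukin-18 receptor, were lower by edgeR. Of all tested genes, 8.94% were called lower there. Between DN+NaB and DN edgeR called none of this list (4 had an unadjusted p under 0.05) and DESeq2 called 1 of 11. Over all genes 1726 of 17530 had such a p, and DESeq2 called 1.52%.

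Of 30 further NF-kB and Toll pathway genes, all tested, 2 were called in DN against NC, against 8.23% of all tested genes. Tnip1, a partner of A20, had 1497 to 1535 counts per NC library, 1965 to 2732 per DN library and 1696 to 2312 per DN+NaB library (DN minus NC 0.80 ± 0.15, adjusted p = 0.00519). Pycard, the inflammasome adaptor ASC, differed by 0.84 ± 0.22 (0.0307). Both kept their call without DN replicate 4 (0.0107 and 0.0435), and without it the receptor-associated kinase gene Irak2 was also called (0.42, adjusted p = 0.00981, against 0.0509 with all libraries). In DN+NaB against NC, Tnip1 (0.53 ± 0.15) and Irak2 (0.62 ± 0.11, adjusted p = 0.00146) were called higher, as were 6.62% of all tested genes. The list's median log2 fold change was 0.18 in DN against NC, -0.10 in DN+NaB against DN and -0.02 in DN+NaB against NC.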

How the data were processed

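Counts per gene symbol were deposited by the authors as 1 unnormalized table, whole numbers for 46095 symbols and 12 libraries. HISAT2 2.0.4 was used, per the submitters' processing notes. How reads were counted, with or without strand, and on which annotation and build (not given in the sources used here) is unknown, so overlapping or antisense genes and near-identical copies are uncertain. Every column matched 1 sample title, and no other columns of per-sample values were present. No 2 libraries agreed within sampling noise (smallest chi-square per degree of freedom 25.4).

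Genes were filtered with filterByExpr, which left 17530, and scaled with TMM factors. All 12 libraries entered 1 edgeR 4.0.16 quasi-likelihood fit (R 4.3.3) with group as its term. Tests were two-sided, and calls rest on p-values adjusted by the Benjamini-Hochberg method over all tested genes, with a limit of 0.05. DESeq2 1.42.0 was an alternative, and scripts used Python 3.11.15. The standard error is the fold change divided by the square root of F. CPM use the TMM factors; per-kilobase levels use merged exon lengths of GENCODE M21, found for 61 of 64 members. The scripts were tested on simulated data.

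The members and lists were chosen with earlier results of these data known. Values by library, or ranges and means, were given for called members, members whose groups did not overlap, members with a library meeting Dixon's criterion (0.829 for 4 libraries, with at least 10 counts), the 6 most abundant chemokines and 18 other members fixed by name. From related lists the called genes are named, or else those with the smallest p; some genes that the rule names are not reported here. Genes named outside this rule, such as those beside Cxcl16, were chosen after their values were seen. Replicate numbers in the titles were checked as pairs. Correlations of same-numbered libraries ran from -0.25 to 0.27, and those of differently numbered ones from -0.29 to 0.32, so no pairing was assumed. Among libraries numbered 4 they were 0.20, 0.22 and 0.27, and a shared batch was not tested. Other normalizations, filters, tests and left-out libraries were tried.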

Additional observations from a re-analysis of the deposited data

Results flagged for a closer look

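A group of 4 libraries was examined if at least 1 of them reached 10 counts. Some DN groups, such as those of Cxcl5 and Il1a, entered only through DN replicate 4, so the numbers are a description. In 22 of the 132 groups examined, 1 library's CPM stood apart from the others by Dixon's criterion. In 20 of these the library was DN replicate 4, high against the other DN libraries. Its CPM was 0.404 for Ccl17, 2.86 for Ccl2, 0.920 for Ccl20, 0.565 for Ccl22, 0.743 for Ccl3, 7.54 for Ccl6, 2.76 for Ccl7 and 8.80 for Ccl9. For CXC chemokines it was 17.5 for Cxcl1, 73.0 for Cxcl10, 9.69 for Cxcl2 and 0.274 for Cxcl5. For interleukins it was 3.47 for Il1a, 28.8 for Il1b and 2.95 for Il6. It was 11.8 for Relb, 61.7 for Nfkbia, 33.7 for Tnfaip3, 18.1 for Tlr2 and 5.49 for Nlrp3. In the same library Ccl27a was low, at 2.65 CPM against 3.31 to 3.42 in the others. The last was Cxcl2 in DN+NaB replicate 4, at 0.732 CPM against 0.0165 to 0.102 in the other DN+NaB libraries.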

How the results depend on the processing

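Cxcl16 kept its call in DN against NC under every alternative run (size factors, filters, DESeq2, 2 groups only, replicate block, each library left out). Ccl5, Cxcl9 and Cxcl16 kept theirs in DN+NaB against NC. All these runs used the same counts, so the part of the locus or of the counting in the Cxcl16 values was not tested. The number of members called in DN against NC was 2, and became 1 with library size only, 1 with at least 1 CPM in 4 libraries, 1 with only the 2 groups compared and 8 with DESeq2. It ran from 1 to 5 when single libraries were left out, with 5 without DN replicate 2 (Cxcl16, Cxcl1, Icam1, Relb and Tnfaip3). The number with the replicate number as a block was 6 (Cxcl10, Cxcl16, Icam1, Nfkb2, Relb and Tnfaip3); the block did not follow any pairing in the labels. In DN+NaB against DN the number was 0, and 1 with DESeq2. In DN+NaB against NC it was 3 to 5 under all alternatives. The cause of these changes was not tested. The Nfkb2 call ended with library size only (adjusted p = 0.128), at least 1 CPM in 4 libraries (0.0523) and 2 groups only (0.0968), and that of Ccl8 with no filter on low counts (0.0618). Leaving out 1 library turned the sign in DN against NC for several members, none of them called. Among them were Il1b (-1.26 to 2.92), Nlrp3 (-0.44 to 1.13), Tlr2 (-0.25 to 0.999), Nfkb1 (-0.0903 to 0.18) and Cx3cl1 (-0.0937 to 0.0497). For the first 4 it was DN replicate 4. Without that library the sign also turned for Ccl2 (from 2.32 to -1.74), Ccl9 (1.01 to -0.50), Ccl12 (0.05 to -1.27) and Ccl4 (0.15 to -0.91). The same held for Tlr4 (0.43 to -0.32), Myd88 (0.11 to -0.07) and Il33 (0.05 to -0.05). With library size only, the groups did not overlap in DN against NC for 3 members, 1 of them lower (Ccl27a), an alternative chosen after seeing the data. Low counts limit Ccl8, Casp1 and the 24 members not tested.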
